A study of Mus musculus with 7 samples.

Results

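The 10 genes followed here govern entry into the cell cycle or respond to p53, and were measured in mouse precision-cut liver slices (PCLS): Cdkn1a, Cdkn1b, Cdkn1c, Cdkn2a, Cdkn2b, Cdkn2c, Ccnd1, Ccnd2, Ccng1 and Mdm2. They were chosen by name, as inhibitors of the cyclin-dependent kinases (CDKs), D cyclins and p53 targets, and make up 10 of the 55487 genes in the count table. The slices, thin discs of living liver that keep all the resident cell types together, came from healthy male BALB/c mice aged 12 to 30 weeks, were 250 µm thick and 3 mm across, and were collected after 3 days of culture in WME medium. Of the libraries, 3 (CTR) came from medium without valproic acid and 4 (VPA) from medium with 2.5 mM valproic acid, an antiepileptic drug that inhibits class I histone deacetylases (HDACs). The study asked whether the drug holds back the fibrotic response that slicing sets off in the tissue. Each library carries the number of a slice culture. Cultures 71, 72 and 74 gave a library to both groups and culture 73 only to VPA. The study's methods count each liver as 1 biological repeat, but the labels do not say what the culture number marks, so a p-value here covers the spread between these libraries.

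Progress through G1 depends on D cyclins, which bind CDK4 and CDK6 and start the inactivation of the retinoblastoma protein. INK4 inhibitors bind these kinases and displace the cyclin, whereas Cip/Kip inhibitors bind whole cyclin-CDK complexes, CDK2 complexes above all. p53, a transcription factor activated by DNA damage and other stress, switches on Cdkn1a together with Mdm2, the ubiquitin ligase that in turn degrades p53, and Ccng1. In cultured cells Cdkn1a is the classic gene induced by HDAC inhibitors, an effect assigned to GC boxes near its start site and not dependent on p53. In the liver, CDKN1A limits hepatocyte division after injury, and D cyclins rise when hepatocytes leave quiescence.

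The promoter windows of Cdkn1a, Cdkn1b and Mdm2 are shown because Cdkn1a is the member best known to respond to HDAC inhibitors, Cdkn1b had the smallest adjusted p and the Mdm2 window held GC boxes as well as a p53 half-site. Each covers 250 bases before to 50 bases after a RefSeq start site on GRCm38.p6, and 7 of the 10 genes had a window there. Cdkn1a has a pair of windows, both on the plus strand of chromosome 17, one at chr17:29090729-29091028 and one at chr17:29093519-29093818. In the first window capitals mark matches to the p53 half-site on either strand.

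Cdkn1a, upstream start: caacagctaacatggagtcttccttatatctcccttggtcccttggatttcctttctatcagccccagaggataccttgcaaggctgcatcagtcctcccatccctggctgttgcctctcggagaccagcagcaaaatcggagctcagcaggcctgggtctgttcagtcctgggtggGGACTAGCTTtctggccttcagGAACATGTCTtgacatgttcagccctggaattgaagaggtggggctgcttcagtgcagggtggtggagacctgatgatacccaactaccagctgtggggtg

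The 2 half-sites of this window begin 73 and 51 bases before the start site, and a p53 half-site was present in 8.36% of 32851 mouse windows of this length. In the next 3 windows capitals mark GC boxes, GGGCGG read on either strand, which 35.7% of all windows hold. Cdkn1b lies on the plus strand at chr6:134920151-134920450 and Mdm2 on the minus strand at chr10:117710709-117711008.

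Cdkn1a, downstream start: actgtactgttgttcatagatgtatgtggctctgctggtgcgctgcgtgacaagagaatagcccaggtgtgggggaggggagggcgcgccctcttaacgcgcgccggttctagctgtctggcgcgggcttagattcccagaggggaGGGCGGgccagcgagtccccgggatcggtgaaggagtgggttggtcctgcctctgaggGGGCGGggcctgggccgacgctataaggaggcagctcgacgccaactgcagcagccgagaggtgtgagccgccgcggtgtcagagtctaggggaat

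Cdkn1b: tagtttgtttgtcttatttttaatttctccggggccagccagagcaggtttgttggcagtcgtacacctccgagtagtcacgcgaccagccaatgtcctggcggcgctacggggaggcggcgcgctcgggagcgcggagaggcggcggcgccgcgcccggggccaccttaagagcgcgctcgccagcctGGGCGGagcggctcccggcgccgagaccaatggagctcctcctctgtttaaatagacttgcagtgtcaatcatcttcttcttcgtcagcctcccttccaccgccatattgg

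Mdm2: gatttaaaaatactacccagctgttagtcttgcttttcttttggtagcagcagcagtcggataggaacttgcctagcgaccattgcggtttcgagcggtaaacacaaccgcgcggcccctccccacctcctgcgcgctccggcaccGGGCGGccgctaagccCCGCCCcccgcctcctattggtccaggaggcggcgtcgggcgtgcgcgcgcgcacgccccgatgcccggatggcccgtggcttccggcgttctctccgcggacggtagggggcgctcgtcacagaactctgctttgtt

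The downstream Cdkn1a window held 2 GC boxes, that of Cdkn1b 1 and that of Mdm2 2. The Mdm2 window also held 1 p53 half-site, 186 bases before the start, and so did the Ccng1 window at chr11:40755237-40755536 on the minus strand, 185 bases before its start. The p53 element for which Mdm2 is best known lies in its first intron, outside this window. These are matches of letters only, since the libraries measure transcripts and not binding.

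Total gene counts ran from 1400887 to 4773750 per library. Levels are given as CPM, counts divided by the library's size after TMM scaling, and a count of 0 allows up to 3 counts, or 0.591 to 2.41 CPM depending on the library, for counting error only. The reads come from transcript 3′ ends, so that a transcript's length does not set its count. Levels of different genes can still be compared only roughly, as the counting program and its strand setting are not given in the sources used here. Hepatocyte transcripts were present in every library, with Trf (transferrin) between 1758 and 8931 CPM and Ahsg (fetuin-A) between 1072 and 2912 CPM. None of the 7 summed lists of cell type markers passed a two-sided exact permutation test between the groups (p between 0.114 and 0.971, the smallest possible being 0.0286). The liver endothelial list stood furthest apart, at 300.4 to 336.5 CPM in CTR and 77.0 to 317.6 CPM in VPA, and the part of such differences in the results below was not tested. In tissue libraries like these, fewer cells of a type and less RNA per cell cannot be told apart. Some tested genes had no count in a library in which the lowest other library of the group predicted at least 10 counts. This touched 111 to 266 of the 10876 genes tested in the CTR libraries and 135 to 499 in the VPA libraries, most in VPA replicate 1.

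No difference between VPA and CTR slices passed the test in any of the 10 genes. After the filter on low counts 8 were tested, and their adjusted p-values lay between 0.514 and 0.989 (edgeR quasi-likelihood test, Benjamini-Hochberg over all genes tested). DESeq2 called 0 of the 10 as well, where it called 0.999% of all genes to which it gave an adjusted p, or 154 of 15415. Of the 8, 1 gene, Cdkn1b, had an unadjusted p under 0.05 by edgeR, against 8.28% of all genes tested. At the adjusted threshold of 0.05, 0.00919% of all genes tested were called, which is 1 gene, Creb3l3, a hepatocyte transcription factor that rose. Its log2 fold change stayed between 2.40 and 2.67 with 1 library left out, but it then remained called in 1 of 7 cases, without VPA replicate 2 (edgeR adjusted p between 0.0407 and 0.244). A block by slice culture took the adjusted p to 0.306 and a block by replicate number to 0.223, so that it was called in neither. With edgeR's main test calling 1 gene of 10876, the intervals below say more than the p-values. Of the 8, 3 had a higher mean with VPA and 5 a lower one, with a median log2 fold change of -0.07, beside -0.06 over all genes tested.

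**Figure D1:**
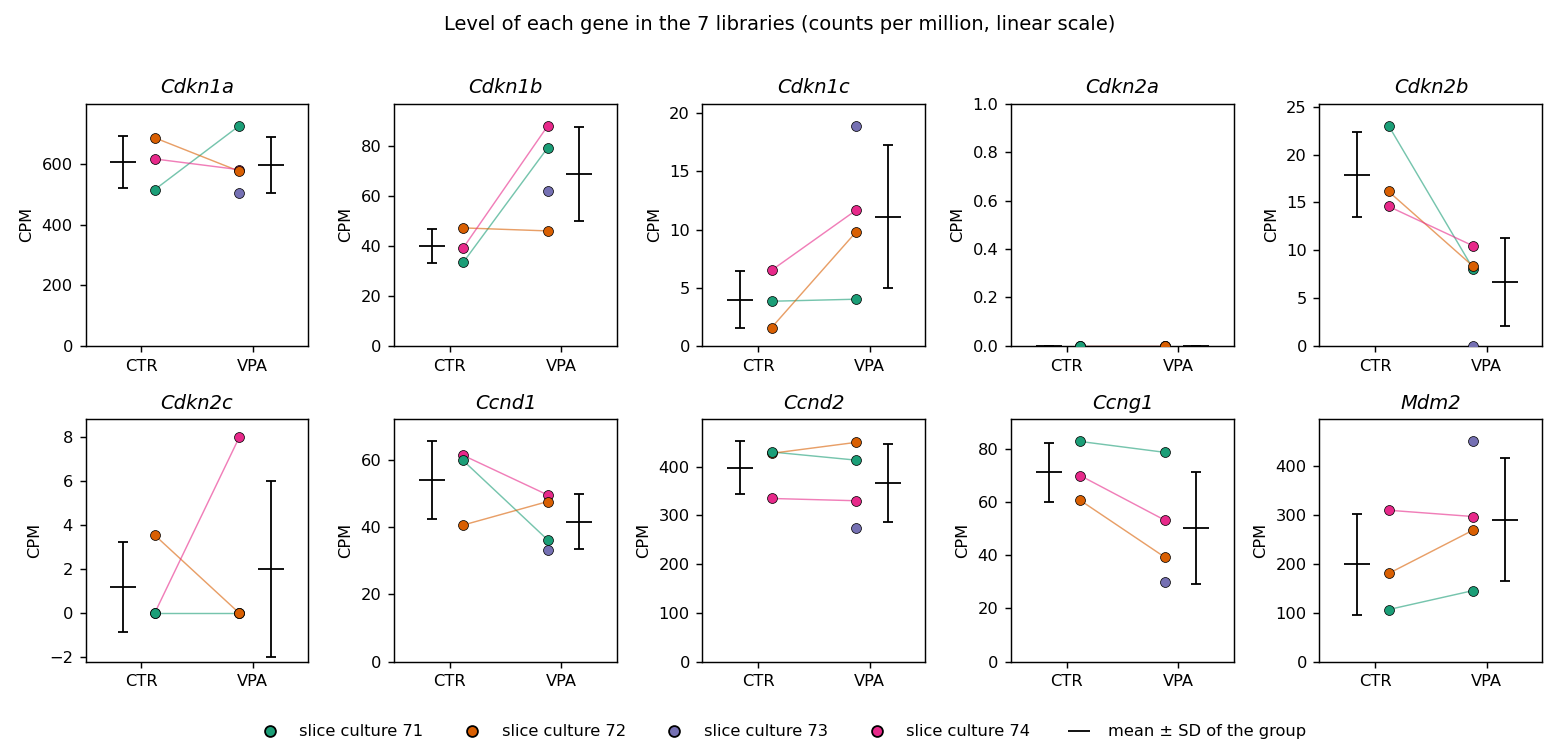
Level of each gene in CPM (linear scale from 0 or below the lowest error bar) in the 3 CTR and 4 VPA libraries; points are libraries coloured by slice culture, thin lines join libraries with the same slice culture number, and black marks are the group mean ± SD. The groups of Cdkn1a and of Ccnd2 overlap, Cdkn1b and Cdkn1c each have 3 VPA points above every CTR point, and in Cdkn2b alone does every VPA point sit under the lowest CTR point.

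Cdkn1a, which encodes the Cip/Kip inhibitor p21, was the most abundant of the 10 genes and was level between the groups. Its CTR libraries held 686, 616.2 and 514.8 CPM in replicates 1 to 3, and its VPA libraries 504.7, 580.8, 725.8 and 575.5 CPM in replicates 1 to 4. The highest and the lowest library of all 7 were both VPA libraries, and the groups overlapped throughout. The means were 605.6 ± 86.1 CPM (SD, n = 3) and 596.7 ± 92.8 CPM (SD, n = 4), a ratio of 0.985. The log2 fold change was -0.02 with an SE of 0.17 and a 95% interval of -0.42 to 0.38, so that the interval reaches from 0.746-fold to 1.30-fold (adjusted p = 0.989). This interval is the narrowest of the 8, resting on 762 to 3126 counts per library. Within slice cultures the direction differed, with log2 ratios of VPA over CTR of 0.50 in culture 71, -0.25 in culture 72 and -0.09 in culture 74. The mean level of Cdkn1a over the 7 libraries stood at the 99.4th percentile of genes with a count. A short gene on the other strand, AC167363.2, overlaps Cdkn1a and had 3 counts in all.

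Cdkn1b, which encodes p27, the Cip/Kip inhibitor associated with quiescence, had the smallest adjusted p of the set. It stood at 47.3, 39.2 and 33.4 CPM in the CTR libraries and at 62.0, 88.2, 79.5 and 46.1 CPM in the VPA libraries. VPA replicates 1 to 3 lay above every CTR library, and VPA replicate 4 lay inside the CTR range. The means were 39.98 ± 6.95 CPM (SD, n = 3) and 69.0 ± 18.8 CPM (SD, n = 4). The log2 fold change was 0.79 with an SE of 0.27 and an interval of 0.17 to 1.41, or 1.12-fold to 2.66-fold, before any account is taken of the number of genes tested (adjusted p = 0.514). VPA replicate 4 and CTR replicate 1 belong to slice culture 72, where the log2 ratio was -0.04, while it was 1.25 in culture 71 and 1.17 in culture 74.

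Cdkn1c, which encodes p57, an imprinted Cip/Kip inhibitor, was scarce. Its CTR libraries held 1.58, 6.51 and 3.84 CPM, from 4, 33 and 7 counts, and its VPA libraries 18.9, 11.7, 4.01 and 9.82 CPM, from 29, 38, 5 and 13 counts. Again 3 VPA libraries exceeded every CTR library and 1, here VPA replicate 3, did not. The log2 ratios within cultures 71, 72 and 74 were 0.06, 2.64 and 0.84. The log2 fold change of 1.46 (SE 0.78, interval -0.36 to 3.28, adjusted p = 0.720) was the highest of the set, with the widest interval after that of Cdkn2b. Of the 3 Cip/Kip genes, the abundant Cdkn1a was thus level and both of the rarer genes had higher mean values with VPA. The difference between these genes was not tested.

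Among the INK4 inhibitors, Cdkn2b, which encodes p15 and is known as a TGFβ-responsive gene, was the single gene with no overlap between the groups. Its level was 16.2, 14.6 and 23.0 CPM in CTR and 0, 10.5, 8.03 and 8.31 CPM in VPA. No VPA library reached the lowest CTR library, as was also the case for 7.41% of all genes tested, while 4.44% of genes tested, and 0 of the 10 here, were wholly higher with VPA. The means of 17.9 ± 4.49 CPM (SD, n = 3) and 6.70 ± 4.59 CPM (SD, n = 4) gave a log2 fold change of -1.40, with an SE of 0.99 and an interval of -3.71 to 0.91 (adjusted p = 0.830). VPA replicate 1 had 0 counts of Cdkn2b where the other VPA libraries predicted at least 10, so it is one of the 499 such genes of that library. Without this library the log2 fold change was -0.99. The log2 ratios within cultures 71, 72 and 74 were -1.52, -0.96 and -0.48, and the lack of overlap already fixed their sign.

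Cdkn2a, which encodes both INK4A and ARF, the inhibitor of MDM2, had no count in any of the 7 libraries. It lies next to Cdkn2b on chromosome 4 and is known for low expression in young tissue, and 0 counts allow a level of up to 0.591 CPM in the deepest library, CTR replicate 2. Cdkn2c, which encodes p18, had 9 counts in CTR replicate 1 (3.55 CPM) and 26 in VPA replicate 2 (7.99 CPM), and 0 in the other 5 libraries. At the level of VPA replicate 2, the other VPA libraries would have given 9.95 to 12.2 counts, so this spread is wider than counting error. Cdkn2a and Cdkn2c did not pass the filter on low counts.

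The D cyclins were expressed at unequal levels, and neither passed the test between the groups. Ccnd2 (cyclin D2) was at 427.5, 334.9 and 430.3 CPM in CTR and at 273.6, 330.2, 413.5 and 450.1 CPM in VPA. The VPA libraries spanned the whole CTR range and went beyond it on both sides. Its log2 fold change was -0.12 (SE 0.20, interval -0.59 to 0.36, adjusted p = 0.953), and the log2 ratios within cultures 71, 72 and 74 stayed between -0.06 and 0.07. Ccnd1 (cyclin D1), the D cyclin most often tied to hepatocyte division, was at 40.6, 61.3 and 59.8 CPM in CTR and at 33.3, 49.5, 36.1 and 47.6 CPM in VPA. VPA replicates 1 and 3 lay below every CTR library and the other VPA libraries did not, and the log2 ratios within cultures 71, 72 and 74 were -0.73, 0.23 and -0.31. Its log2 fold change was -0.37 (SE 0.25, interval -0.95 to 0.21, adjusted p = 0.819). Ccnd1 overlaps the 3′ end of LTO1, a gene on the other strand with 376 counts in all, and the strand setting of the count is not given in the sources used here, so reads could have passed between them. Ccnd2 overlaps Gm43126 and 9330179D12Rik on the other strand, which had 0 and 4 counts.

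The p53 targets Ccng1 and Mdm2 had mean values that differed in opposite directions, each within its spread. Ccng1 (cyclin G1), an atypical cyclin that recruits a phosphatase to MDM2, was at 60.7, 70.0 and 82.8 CPM in CTR and at 30.03, 53.2, 78.7 and 39.3 CPM in VPA. VPA replicates 1, 2 and 4 were under the CTR range, and VPA replicate 3 was inside it. The log2 ratios within cultures 71, 72 and 74 were -0.07, -0.63 and -0.40. The log2 fold change was -0.50 (SE 0.33, interval -1.27 to 0.27, adjusted p = 0.802). Mdm2 was at 180.1, 309.3 and 106.4 CPM in CTR and at 449.8, 296.4, 145.3 and 268.9 CPM in VPA. The groups overlapped, with VPA replicate 1 above all others and CTR replicate 3 below all others, and the log2 ratios within cultures 71, 72 and 74 were 0.45, 0.58 and -0.06. Its log2 fold change was 0.54 (SE 0.45, interval -0.50 to 1.59, adjusted p = 0.879), and it moved to 0.22 without CTR replicate 3 and to 1.01 without CTR replicate 2. Together with Cdkn1a, the 3 p53 targets of the set gave log2 values of -0.02, -0.50 and 0.54, with no shared direction.

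Mdm2 and Ccng1 each kept 1 order of the shared slice cultures in both groups, a pattern picked out after the values were seen. No other tested member did. With so few shared cultures some genes keep their order by chance, and the share over all genes was not computed. In both groups Mdm2 was lowest in culture 71, higher in culture 72 and highest of the shared cultures in culture 74, at 106.4, 180.1 and 309.3 CPM in CTR and 145.3, 268.9 and 296.4 CPM in VPA. Ccng1 was highest in culture 71 and lowest in culture 72 in both groups. Culture 73, with a VPA library only, had the highest Mdm2 and the lowest Ccng1 of the 7 libraries, and the CTR library of culture 71 had the lowest Mdm2 and the highest Ccng1. The libraries of culture 71 were also the highest in Trf, at 8822 and 8931 CPM. The summed hepatocyte markers were highest there too, at 18750 CPM (CTR) and 16100 CPM (VPA). Not every marker of that list was, with Ahsg highest in the VPA library of culture 74 (2912 CPM) and Alb (albumin) in culture 73 (5066 CPM). The part of hepatocyte content in this order was not tested.

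**Figure D2:**
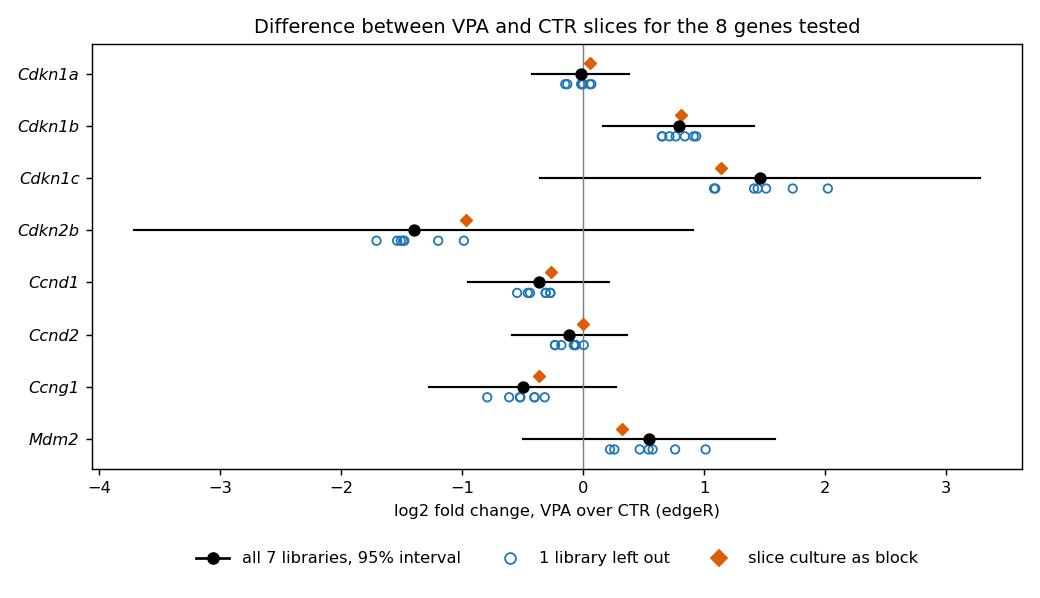
Log2 fold change of VPA over CTR for the 8 genes tested; black points and bars are the edgeR estimate from all 7 libraries with its 95% interval, open blue circles the estimate with 1 library left out, and orange diamonds the estimate with slice culture as a block. The Cdkn1b interval of 0.17 to 1.41 is the one that does not reach 0, and the Cdkn2b interval, from -3.71 to 0.91, is the widest.

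Other genes of the same pathways were read from 5 lists, by their counts and medians beside the median of -0.06 over all genes tested, and edgeR called 0 genes in any list. Of the 23 other G1 genes 18 were tested, with 11 at a higher and 7 at a lower mean value with VPA and a median log2 fold change of 0.17. In each direction 1 had an unadjusted p under 0.05, beside 8.28% of all genes tested over both directions. The 4 most abundant were Cdk6 and Cdk4, the kinases that D cyclins activate, Fbxw7, which marks cyclin E for degradation, and Tfdp2, a partner of the E2F factors. Cdk4 was at 69.4, 70.2 and 81.1 CPM in CTR and at 42.4, 63.0, 47.4 and 34.7 CPM in VPA. The groups did not overlap, with a log2 fold change of -0.64 (SE 0.23, adjusted p = 0.541). Of the 18 tested, 2 were wholly lower with VPA, beside 7.41% of all genes tested, and 0 wholly higher, beside 4.44%. The 2 were Cdk4 and Myc, which was named after its values were seen. Cdk6, Fbxw7 and Tfdp2 had log2 values of -0.30, 0.10 and 0.26 and overlapped between the groups.

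Of the 30 other p53 targets 23 were tested, 8 with a higher and 15 with a lower mean value, with a median of -0.17. None of them was higher with an unadjusted p under 0.05 and 2 were lower, beside 8.28% of all genes tested in either direction. Among the most abundant were Trp53inp1, a p53 cofactor, Gadd45a, a DNA damage response gene, and Xpc, a nucleotide excision repair gene, at log2 values of -0.12, 0.25 and 0.10. These 3 overlapped between the groups, with adjusted p-values between 0.956 and 0.968. In 4 of the 23 (Zmat3, Phlda3, Plk2 and Ddit4, named after their values were seen) no VPA library reached the lowest CTR library, beside 7.41% of all genes tested, and 0 were wholly higher with VPA, beside 4.44%. Their log2 values were -0.70, -1.82, -0.78 and -2.51, the last with 0 counts in 3 of the 4 VPA libraries. Of p53 itself and its regulators 13 of 16 were tested, with a median of -0.13 and 0 called by edgeR. Crebbp, the acetyltransferase CBP that acts on p53 and on histones, was at 309.7, 316.4 and 280.1 CPM in CTR and at 216.8, 170.6, 166.2 and 209.2 CPM in VPA. Its groups did not overlap, the log2 fold change was -0.66 (SE 0.15, adjusted p = 0.295 by edgeR), and it was the 1 gene of this list that DESeq2 called, at an adjusted p of 0.0295. The related Ep300, the deubiquitinase gene Usp7 and the kinase gene Hipk2 had log2 values of -0.26, -0.13 and 0.02.

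The proliferation genes stood lowest of the 5 lists. Of 19 genes 12 were tested, 2 with a higher and 10 with a lower mean value and a median log2 fold change of -1.79, and in 7 of the 12 no VPA library reached the lowest CTR library, beside 7.41% of all genes tested. Of those 7, 5 had a VPA library with no count. The number of genes with any count was also lower in every VPA library (14359 to 16761) than in every CTR library (17744 to 19756), and its part in these zeros was not tested. A gene can pass the filter on low counts through the CTR libraries alone, as did Mcm4, which had no count in any VPA library. The median and the 7 wholly lower genes include such cases, so neither is free of the filter. With no adjustment 4 of the 12 passed a p of 0.05 by edgeR, all of them lower, beside 8.28% of all genes tested in either direction. After adjustment edgeR called 0. Top2a, the topoisomerase of dividing cells, was at 48.1, 54.8 and 35.6 CPM in CTR and at 3.92, 15.1, 13.7 and 6.80 CPM in VPA. Every VPA library was below every CTR library, with a log2 fold change of -2.21 (SE 0.48, adjusted p = 0.289 by edgeR and 0.0132 by DESeq2). Mcm3, a subunit of the replicative helicase, had a log2 value of -1.53 (adjusted p = 0.448) and no overlap, whereas its partner Mcm7 and the polymerase clamp gene Pcna, at -0.30 and 0.24, overlapped between the groups. Mcm4 (10.6 CPM on average in CTR, 0 counts in all VPA libraries) was at least 25.9-fold lower against a floor of 3 counts over the 4 VPA libraries. It was named after its values were seen, because DESeq2 called it along with Top2a. The median of the list is the same with Mcm4 at that bound. Of 8 markers of hepatic stellate cells, which divide when activated, 6 had a lower and 2 a higher mean value in VPA slices, the median log2 value was -0.98, and edgeR called 0. Their sum overlapped between the groups, at 1339 to 3046 CPM in CTR and 1067 to 2435 CPM in VPA (exact permutation p = 0.4). DESeq2 called 2 of the 8, the collagen genes Col1a1 and Col1a2, the second named after its values were seen. Col1a1 was at 949.2, 515.2 and 703.9 CPM in CTR and at 238.3, 172.5, 244.1 and 261.3 CPM in VPA (log2 fold change -1.66, adjusted p = 0.112 by edgeR and 4.43e-07 by DESeq2), while Dcn (decorin), the most abundant marker of the list, had a log2 value of 0.51. The liver endothelial markers, whose sums are given above, had a median log2 value of -0.61 over the 7 tested, with 0 called by either tool. Wholly lower with VPA were 2 of these 7 and 2 of the 8 stellate markers, beside 7.41% of all genes tested. Wholly higher were 0 of either list, beside 4.44%. The part of stellate or endothelial cell content in the proliferation genes was not tested.

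Of the other genes known to respond to HDAC inhibitors 6 of 7 were tested, 5 with a higher and 1 with a lower mean value and a median of 0.66, and 0 were called by edgeR or DESeq2. H1f0, the linker histone gene that HDAC inhibitors are known to raise, was at 72.1, 148.8 and 47.7 CPM in CTR and at 161.9, 263.5, 137.3 and 188.8 CPM in VPA. CTR replicate 2 lay inside the VPA range and the other CTR libraries below it, and the log2 fold change was 1.06 (SE 0.40, adjusted p = 0.561). Within each shared culture the VPA library was the higher. CTR and VPA stood at 47.7 and 137.3 CPM in culture 71, 72.1 and 188.8 in culture 72, and 148.8 and 263.5 in culture 74. Clu (clusterin), Tgfbr2 (a TGFβ receptor) and Txnip (the thioredoxin-interacting protein) had log2 values of -0.08, 0.55 and 0.53. Against the 1.06 of H1f0, the value of -0.02 of Cdkn1a is given side by side only, as the difference between these genes was not tested.

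**Figure D3:**
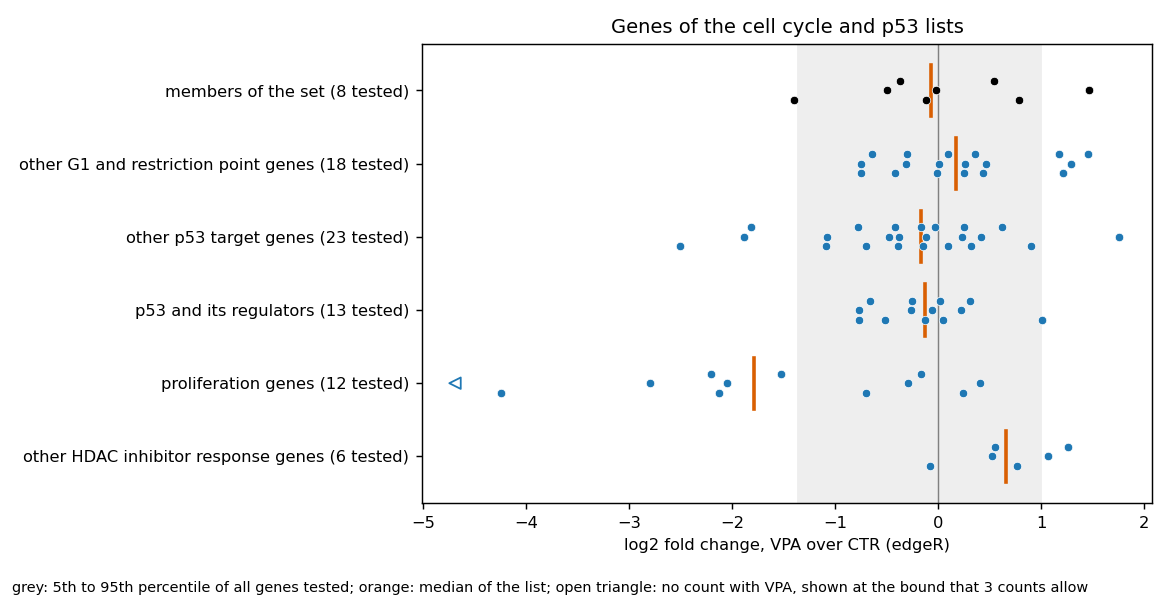
Log2 fold change of VPA over CTR (edgeR, horizontal axis) for the 8 members tested (black) and for the tested genes of 5 pathway lists (blue), 1 point per gene; orange bars are medians, the open triangle is Mcm4 at its bound, and the grey band holds the range from the 5th to the 95th percentile of all genes tested. The medians lie between -0.17 and 0.66 except that of the proliferation genes, at -1.79.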

How the data were processed

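RNA from 3 CTR and 4 VPA mouse PCLS cultures was made into 3′ end libraries, and the authors mapped single-end reads to GRCm38 (mm10) with STAR and used StringTie for assembly. The deposited table holds raw counts per Ensembl gene, with no normalization. The counting program, its strand setting and its handling of multiply mapped reads are not given in the sources used here. GENCODE M21 gave symbols to 55141 of the 55487 genes. In R 4.3.3, edgeR 4.0.16 was run with TMM scaling, filterByExpr and a robust quasi-likelihood fit with condition as its only term, and p-values were adjusted by Benjamini-Hochberg over the 10876 genes kept. DESeq2 1.42.0 and limma 3.58.1 (voom) were alternatives. CPM use the TMM-scaled total of the genes kept. The code was tested on simulated data. Summed markers were compared by exact permutation over 35 arrangements of the libraries. Libraries were taken as replicates from the labels, and the study's methods count each liver as 1 biological repeat. Pairs within a group differed by more than counting noise (chi-square per degree of freedom 14.7 to 27.3), which repeat libraries of the same RNA could also do. RefSeq promoter windows of GRCm38.p6 were searched on both strands. The members and all gene lists were chosen with earlier results of these data known. Named were all 10 members, genes overlapping them, any list gene with an adjusted p under 0.05, the 4 most abundant genes of each pathway list and the 2 most abundant of marker lists that are described, and any other gene named was chosen after its values were seen. A gene that this rule names is not reported here.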

Additional observations from a re-analysis of the deposited data

Results flagged for a closer look

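Of 17 measures examined in the 4 VPA libraries (the members with a count, the marker sums and the library totals), 2 had a library far from the other 3. VPA replicate 2 had the highest total of its group, 3102450 counts, and chance marks about 1 such group in 20. Cdkn2c stood at 7.99 CPM in the same library and at 0 in the other VPA libraries, where any value above 0 would have been marked.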

How the results depend on the processing

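Of 134 log2 fold changes recomputed for the 8 tested members under 17 alternatives, 130 kept their direction, 4 changed it and 0 were called. Cdkn1a (-0.02) was at 0.0507 with slice culture as a replicate block and ranged from -0.15 to 0.0656 with 1 library left out (0.0656 without CTR replicate 1, 0.0521 without VPA replicate 1). Ccnd2 ranged from -0.23 to 0.003, the last without VPA replicate 1. Without single libraries, Cdkn1c ranged from 1.08 to 2.02, Cdkn2b from -1.71 to -0.99, Ccng1 from -0.80 (without VPA replicate 3) to -0.32 (without VPA replicate 1) and Mdm2 from 0.22 (without CTR replicate 3) to 1.01 (without CTR replicate 2). The number of members wholly above CTR went from 0 to between 0 and 1 (Cdkn1b without CTR replicate 1 or VPA replicate 4, Cdkn1c without CTR replicate 2 or VPA replicate 3), and the number wholly below from 1 to between 1 and 2 (Ccnd1 without CTR replicate 1, Ccng1 without VPA replicate 3, each beside Cdkn2b). With 1 library left out and the CPM kept, these numbers can only stay or rise. The share over all genes was not computed for these settings. Over all genes the 1 call became 154 with DESeq2, 10 with no filter on low counts, 36 with at least 10 counts in every library, 0 to 2 with 1 library left out (higher only without VPA replicate 2, where 1 of 2 was), and 0 with a replicate block by slice culture or by replicate number; the cause was not tested. DESeq2 called 1 gene among p53 and its regulators and 2 among the proliferation genes, where edgeR called 0. Deviations of libraries from the same slice culture (71, 72 and 74) correlated at 0.107, 0.0256 and 0.0546. Those sharing a replicate number (1 to 3) correlated at -0.0539, 0.0546 and 0.107. Replicates 2 and 3 of both groups come from the same cultures, 74 and 71, so the values 0.0546 and 0.107 are the same pairs. This check therefore cannot tell the numberings apart or exclude a pairing, and the main test used neither.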
